A study of Mus musculus with 12 samples.

Results

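The adrenomedullin ligand and receptor genes were Adm, Adm2, Calcrl, Calcr, Ramp1, Ramp2 and Ramp3. They were taken by name, all 7 were found through GENCODE M21 symbols, and they make up 7 of the 55487 genes in the count table. RNA sequencing had been done on 12 mouse libraries in 4 groups of 3. Cells of the mouse hepatoma line Hepa1 (wild type per the labels) and primary embryonic fibroblasts, or MEFs (all labelled as Bach1 knockout), were each kept for 4 days in medium from immortalised MEFs. That medium had been conditioned for 48 h either by control cells or by cells made to express Bach1 again, which the labels call ferroptotic. Both media held 10% fetal bovine serum, and 0.1 mM 2-mercaptoethanol and 0.4 mg/mL vitamin E were added in all 4 groups. Both MEF groups carry the Bach1 knockout, so no MEF comparison here is between genotypes. Hepa1 and MEFs differ in cell type and in Bach1 genotype, and these cannot be told apart in any comparison between them. Nothing in the labels says that the 3 libraries of a group came from separate cultures, so the spread between them may be technical. The SE and adjusted p-values below rest on that spread and may not cover differences between cultures.

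Adrenomedullin, the product of Adm, and adrenomedullin 2 (intermedin), the product of Adm2, are small secreted peptides that widen blood vessels and guard the endothelial barrier. They act on a class B G protein-coupled receptor, the product of Calcrl, which needs a single-pass partner from the RAMP family to reach the cell surface and to choose its ligand. With RAMP1 it binds calcitonin gene-related peptide, and with RAMP2 or RAMP3 it binds adrenomedullin. Calcr encodes the calcitonin receptor, which forms amylin receptors with RAMPs. These receptors signal mainly through Gs and cyclic AMP (cAMP), and Adm is a known target of the hypoxia-inducible factors.

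The genes lie on 6 chromosomes of GRCm38, and all are annotated as protein-coding. Adm (ENSMUSG00000030790) is at chromosome 7, 110627661 to 110629820, and Adm2 (ENSMUSG00000054136) at chromosome 15, 89322720 to 89324731, both on the plus strand. Calcrl (ENSMUSG00000059588) is at chromosome 2, 84330626 to 84425411, and Calcr (ENSMUSG00000023964) at chromosome 6, 3685680 to 3764714, both on the minus strand. Ramp1 (ENSMUSG00000034353) is at chromosome 1, 91179822 to 91225196. Ramp2 (ENSMUSG00000001240) and Ramp3 (ENSMUSG00000041046) are both on chromosome 11, at 101246028 to 101259546 and at 6658521 to 6677475, and all RAMP genes are on the plus strand.

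Adm and Ramp3 were the members at a lower level in MEFs in ferroptotic medium with the most reads, and the sequence just before their start is shown because both hold the same hypoxia element core. The lines give the plus strand 5′ to 3′ from RefSeq (GRCm38.p6), at chr7:110627407-110627656 for Adm and chr11:6658283-6658520 for Ramp3. The Ramp3 line stops before the first annotated exon.
Adm: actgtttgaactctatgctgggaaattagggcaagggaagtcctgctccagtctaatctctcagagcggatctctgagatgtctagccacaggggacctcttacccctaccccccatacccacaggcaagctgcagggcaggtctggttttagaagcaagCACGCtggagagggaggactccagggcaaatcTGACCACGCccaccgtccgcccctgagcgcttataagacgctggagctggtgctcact
Ramp3: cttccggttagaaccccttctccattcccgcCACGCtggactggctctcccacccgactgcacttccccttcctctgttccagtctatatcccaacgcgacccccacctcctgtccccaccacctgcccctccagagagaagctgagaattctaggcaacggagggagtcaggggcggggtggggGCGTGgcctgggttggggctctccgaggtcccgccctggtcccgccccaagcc
Capitals mark matches to the motifs searched on both strands. The core GCGTG of the hypoxia response element, which reads CACGC on the shown strand where it lies on the other one, was matched 2 times in each line. In Adm the matches start 90 and 54 bases before the RefSeq start, and in Ramp3 219 and 65 bases before it. The capitals at the second Adm match also hold the core TGACNNNGC of the antioxidant response element, bound by NRF2 and BACH1, from position -58 to -50, and the GCGTG match overlaps it.

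Among the 32851 promoter windows of 250 bases in the RefSeq table, 28.2% hold GCGTG and 10.2% hold TGACNNNGC. These shares count windows with any match, and the share with 2 matches was not computed. The other letters searched were ACGTG, the second form of the hypoxia core (16.6% of windows), the cAMP response element TGACGTCA (1.55%) and its shorter form TGACG (17.8%), which TGACGTCA contains and which can overlap ACGTG. None of these 3 was in the Adm or Ramp3 window. The windows of Adm2, Calcrl and Ramp1 held none of the 5 motifs. Adm2 and Ramp1, read at low levels, also had lower means in MEFs in ferroptotic medium. The 2 Calcr windows held TGACG only. A window was found for 6 of the 7 genes, and Ramp2 was not matched. Such matches describe letters and do not show a bound site.

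Between 18.58 M and 23.4 M reads per library were assigned to genes, and levels are given as CPM, the read count of a gene scaled to 1000000 assigned reads. In 1 library 3 reads, used as the floor, equal 0.128 to 0.161 CPM. All 9 fibroblast markers listed were at 1 CPM or more in MEFs, with sums of 47611 to 49644 CPM in control and 43320 to 44489 CPM in ferroptotic medium, against 1680 to 1995 and 2600.2 to 2677 CPM in Hepa1, mostly Col1a1. Dcn alone of the 9 was higher in Hepa1 than in MEFs in both media. Of 10 hepatocyte markers 4 reached 1 CPM in Hepa1, with sums of 485 to 501 CPM in control and 1649 to 1800 CPM in ferroptotic medium. Ttr and Apoa1 had no read in Hepa1, so the liver label rests on few markers. Hepa1 ferroptotic replicate 3 stood apart. The 28 genes compared had at least 500 CPM in both MEF groups and a mean under 0.2 CPM in Hepa1 control. This replicate held them at 0.115% of their MEF level, against 0.00751 and 0.0139% in ferroptotic replicates 1 and 2. The Hepa1 control libraries, at 0.00428 to 0.00844%, were low by the choice of genes. The higher MEF group mean was used for each member, that of control medium for Adm and of ferroptotic medium for Ramp2. At 0.115% of that mean, ferroptotic replicate 3 would hold 1.39 reads of Adm and 0.589 of Ramp2, and it held 0 of both.

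In MEFs, the ligand gene Adm was lower in ferroptotic than in control medium, while the receptor gene Calcrl and its partner gene Ramp2 were each more than 3 times as high. Ramp3, the other partner gene for adrenomedullin, was lower together with Adm, at 61 to 76 reads per library in control and 3 to 6 in ferroptotic medium. In Hepa1, Calcrl was the only member above 1 CPM, and Adm, Calcr and Ramp1 had no read. The members were selected on their known roles, with these same CPM values and medium differences in view, so for them the levels, log2 changes and SE are a description and no p is given.

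Adm, the main ligand gene, was read in MEFs only. The 3 control libraries held 55.95, 60.43 and 61.67 CPM, and the 3 ferroptotic libraries 23.58, 25.13 and 26.84 CPM. The groups did not overlap, and every ferroptotic library was under 30 CPM. The log2 change was -1.30 (SE 0.0502), from 59.4 ± 3.01 to 25.2 ± 1.63 CPM (SD, n = 3 each). All 6 Hepa1 libraries had 0 reads. A floor of 3 reads over a group of 3 libraries allows Hepa1 up to 0.0508 CPM in control and 0.0511 CPM in ferroptotic medium. Set against that floor, the MEF level was at least 1168.6-fold higher in control and at least 492.5-fold higher in ferroptotic medium. An antisense gene, Gm28863, spans Adm but shares 0 exon bases with it and had 10 and 5 reads in MEFs in control and ferroptotic medium.

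Adm2, the second ligand gene, was near the limit of detection. It had 6, 8 and 7 reads in the MEF control libraries and 2, 4 and 1 in the MEF ferroptotic libraries. The groups did not overlap, at 0.323 ± 0.0364 and 0.106 ± 0.0712 CPM, but 2 of the 3 ferroptotic libraries were under the floor of 3 reads. Summed over libraries, 21 and 7 reads gave a ratio of ferroptotic to control of 0.323 with a 95% counting interval of 0.116 to 0.790. Hepa1 held 1 read in all.

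Calcrl, the receptor gene, was read in both cell types and moved to opposite sides. MEF control libraries held 4.992, 5.032 and 5.001 CPM and MEF ferroptotic libraries 17.71, 19.04 and 15.86 CPM. The groups did not overlap, and the control libraries were almost equal. The log2 change was 1.74 (SE 0.0919), from 5.01 ± 0.0209 to 17.5 ± 1.60 CPM. Hepa1 control libraries held 15.95, 18.08 and 14.78 CPM and Hepa1 ferroptotic libraries 11.10, 13.13 and 12.18 CPM. All ferroptotic libraries were below all control libraries here, by a smaller step, with a log2 change of -0.47 (SE 0.0866). Without Hepa1 ferroptotic replicate 3 it was -0.47. In control medium Calcrl was 3.25 times as high in Hepa1 as in MEFs, and in ferroptotic medium 1.44 times as high in MEFs as in Hepa1.

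Ramp2, the partner gene for the main adrenomedullin receptor, followed Calcrl in MEFs. The control libraries held 6.69, 7.06 and 7.86 CPM and the ferroptotic libraries 24.92, 25.86 and 24.75 CPM. The groups were far apart relative to their spread. The log2 change was 1.74 (SE 0.0754), from 7.20 ± 0.597 to 25.2 ± 0.599 CPM, the same size as that of Calcrl to 2 decimals. Hepa1 held 3 reads in the control libraries (2, 1 and 0) and 0 in the ferroptotic libraries. Annotated Ramp2 transcripts run into Vps25 on the same strand, and 1103 of the 3301 exon bases (33.4%) are shared. How reads on these shared bases were counted is not stated and was not tested. The counting tool, HTSeq, set 3.66 to 4.03% of reads per library apart as ambiguous. Any reads on shared bases among these would be missing from the counts of both genes, while the exon length of Ramp2 keeps those bases. Vps25 itself had 21 and 22 reads in MEFs in control and ferroptotic medium, which may leave out reads on the shared bases.

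Ramp3, the other adrenomedullin receptor partner gene, was on the opposite side from Ramp2. It had 61, 76 and 61 reads in the MEF control libraries and 6, 6 and 3 reads in the MEF ferroptotic libraries. The lowest control library held over 10 times the reads of the highest ferroptotic library. The level was 3.04 ± 0.269 CPM in control and 0.227 ± 0.0854 CPM in ferroptotic medium, and the log2 change was -3.80 (SE 0.283). From 198 and 15 reads, the control level was 13.6 times the ferroptotic level, with a 95% counting interval of 8.05 to 24.8. With log2(mean CPM + 0.5), a scale that understates the change of low genes, the change was -2.29. In Hepa1 the direction was the other way at very low levels, with 3, 5 and 4 reads in control and 11, 13 and 7 in ferroptotic medium. The Hepa1 groups did not overlap, and the ratio of ferroptotic to control was 2.60 with a counting interval of 1.30 to 5.56. Ramp3 was under the low-count filter in Hepa1, so it has no fitted change there. At 0.115% of the MEF control mean, the higher MEF mean, Hepa1 ferroptotic replicate 3 would hold 0.0712 Ramp3 reads, and it held 7. Whether this library holds MEF RNA was not tested. The processed pseudogene Gm11978 on the other strand shares 101 exon bases with Ramp3 and had 1 read in Hepa1 and 0 in MEFs.

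Ramp1, the partner of the calcitonin gene-related peptide receptor, had 13, 10 and 9 reads in MEF control libraries and 5, 6 and 7 in MEF ferroptotic libraries. The groups did not overlap, at 0.494 ± 0.103 and 0.268 ± 0.0344 CPM, and the counting interval of the ferroptotic to control ratio, 0.288 to 1.00, reached 1. Hepa1 had no read. Calcr, the calcitonin receptor gene, had 0 reads in all 12 libraries, which allows up to 0.0449 to 0.0511 CPM in a group.

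**Figure D1:**
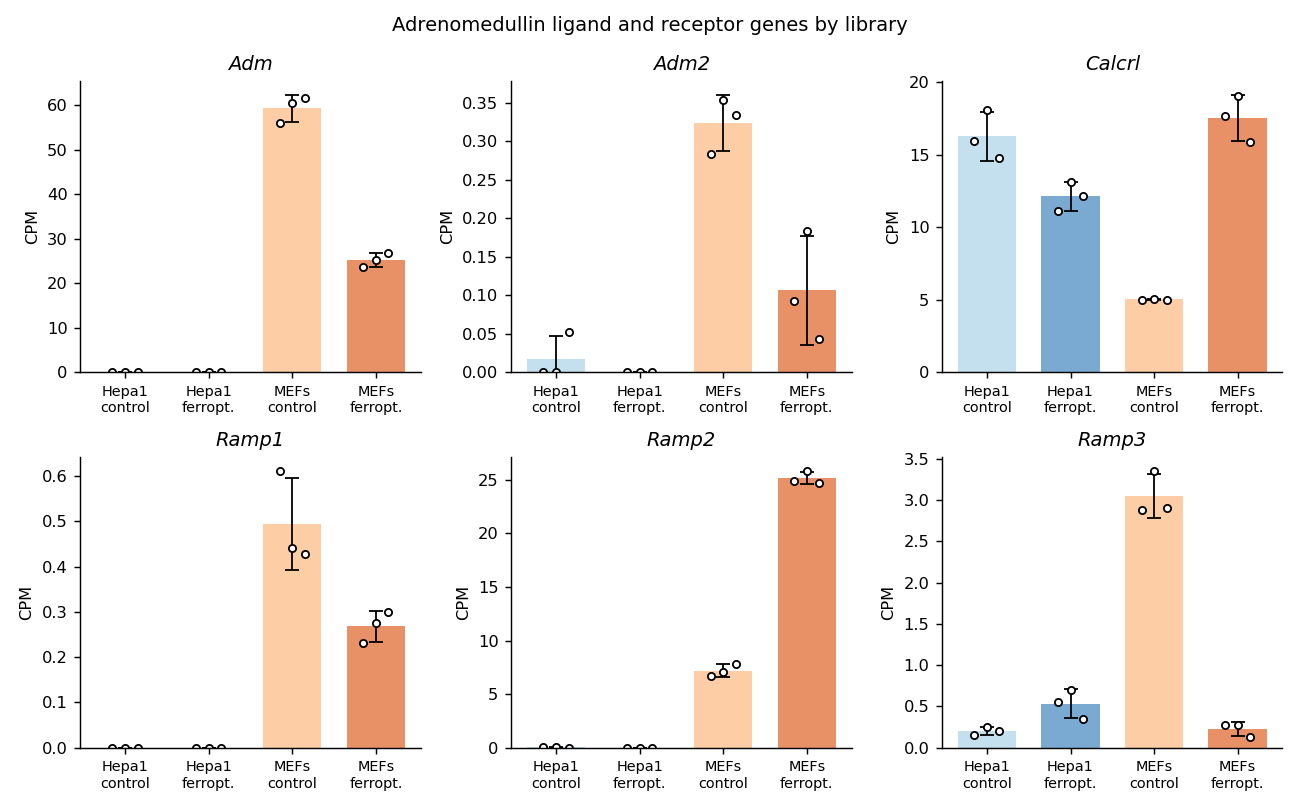
CPM (vertical axis, linear) of 6 member genes in the 4 groups, with bars for means, error bars for SD and open points for the 3 libraries. Adm is at 59.4 and 25.2 CPM in MEFs in control and ferroptotic medium and at 0 in Hepa1, Calcrl and Ramp2 are higher and Ramp3 lower in MEFs in ferroptotic medium, and Calcr, at 0 everywhere, is not drawn.

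In MEFs 4 of the 7 members (Adm, Calcrl, Ramp2 and Ramp3) passed the low-count filter, and edgeR called 2 of them higher and 2 lower at an adjusted p under 0.05. Among all 14441 genes tested in MEFs 55.0% were called. In Hepa1 only Calcrl passed the filter and it was called lower, where 58.1% of 13169 genes were called. Libraries of the groups did not overlap for 60.7% of genes tested in MEFs and 63.2% in Hepa1. The members were chosen with these contrasts known, so nothing is read from their counts. In bulk RNA, fewer cells of a type and less RNA per cell cannot be told apart.

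To compare levels between genes, CPM were divided by the length of all annotated exons in kilobases (RPKM). On this scale the order in MEFs in control medium was Adm (36.7 ± 1.86), Ramp3 (2.21 ± 0.195), Ramp2 (2.18 ± 0.181), Calcrl (1.03 ± 0.00429), Adm2 (0.249 ± 0.0280), Ramp1 (0.164 ± 0.0339) and Calcr at 0. Ramp3 and Ramp2 overlapped, and the other neighbours did not. In ferroptotic medium the order was Adm (15.6 ± 1.01), Ramp2 (7.63 ± 0.182), Calcrl (3.59 ± 0.328), Ramp3 (0.164 ± 0.0619), Ramp1 (0.0888 ± 0.0114), Adm2 (0.0817 ± 0.0548) and Calcr. There Ramp3 overlapped Ramp1 and Ramp1 overlapped Adm2, and the other neighbours did not overlap. With the length of the principal transcript, which for Ramp2 is 1178 and not 3301 bases, the order at the top differed. Ramp2 was then above Ramp3 in control medium (6.11 ± 0.507 against 2.47 ± 0.218) and above Adm in ferroptotic medium (21.4 ± 0.509 against 18.1 ± 1.17), with no overlap in either case. In Hepa1 the order was Calcrl (3.33 ± 0.342 in control and 2.49 ± 0.208 in ferroptotic medium) and then Ramp3 (0.147 ± 0.0356 and 0.387 ± 0.130), with the other 5 members overlapping each other at or near 0.

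The mix of RAMP transcripts in MEFs differed between media. Of the summed RPKM of the 3 RAMP genes, Ramp2 made up 47.0, 45.4 and 51.4% in the control libraries and 96.5, 96.4 and 97.5% in the ferroptotic libraries. Ramp3 made up 48.3, 51.5 and 45.5% and then 2.57, 2.45 and 1.21%. Ramp2 thus took nearly all of the RAMP level in every ferroptotic library. With the length of the principal transcript the Ramp2 share was 69.5 ± 2.65% in control and 98.6 ± 0.245% in ferroptotic medium, so the near-equal shares of Ramp2 and Ramp3 in control medium depend on the length used. The summed RAMP level was 4.44 ± 0.194 times that of Calcrl in control and 2.20 ± 0.147 times in ferroptotic medium, and with the principal transcript 8.57 ± 0.456 and 6.06 ± 0.429 times. Adm was 35.7 ± 1.75 times Calcrl in control and 4.37 ± 0.639 times in ferroptotic medium, and with the principal transcript 41.6 ± 2.04 and 5.09 ± 0.745 times.

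**Figure D2:**
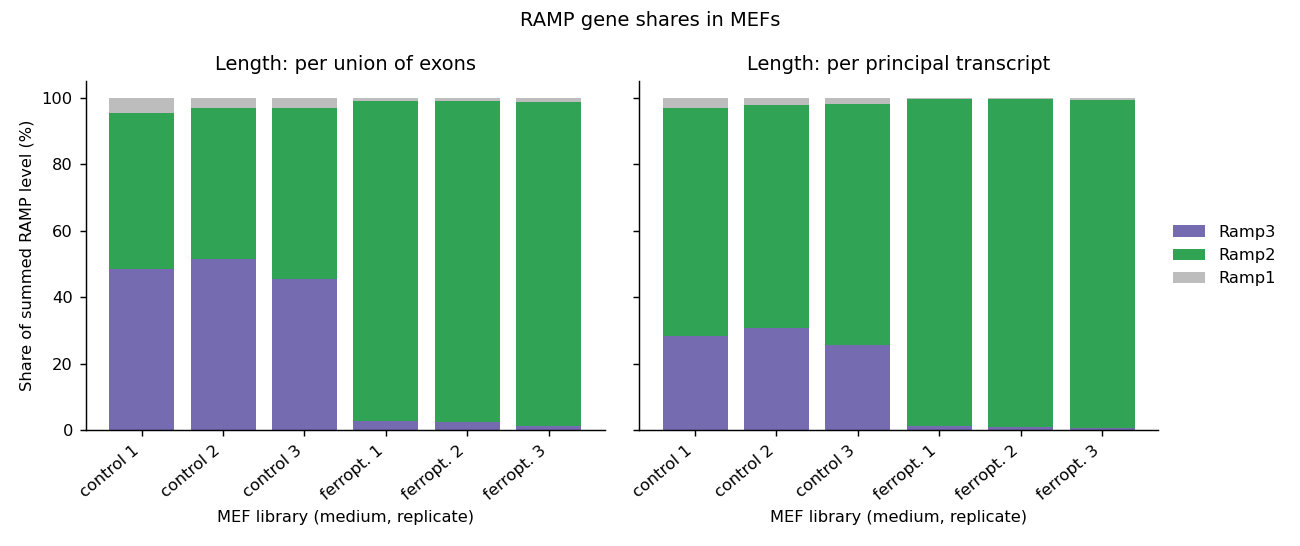
Share in percent of the summed per-length level that Ramp3, Ramp2 and Ramp1 take in each of the 6 MEF libraries, with lengths from the union of exons (left) or the principal transcript (right). Ramp3 takes 45.5 to 51.5% in control medium on the left and 25.6 to 30.5% on the right, and at most 2.57% in any ferroptotic library.

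Markers of cells in which adrenomedullin receptors are best known were read in MEFs beside these values. Of 13 endothelial markers 4 reached 1 CPM in both media, led by Erg (53.7 ± 3.12 CPM in control and 62.2 ± 1.66 CPM in ferroptotic medium). Cdh5, Tie1, Emcn, Cldn5 and Robo4 had no read in any MEF library, and the sums were 66.2 to 72.6 and 74.5 to 78.6 CPM. Of 3 lymphatic markers Flt4 alone reached 1 CPM, and the sums were 6.19 to 6.84 and 3.59 to 4.72 CPM. Of 10 pericyte and smooth muscle markers 6 reached 1 CPM, and the sums were 1261 to 1333 and 1034 to 1086 CPM. Among these Acta2 went from 579 ± 28.8 to 286 ± 5.68 CPM and Notch3 from 56.4 ± 2.03 to 84.7 ± 1.64 CPM. Of 7 macrophage markers 2 reached 1 CPM, with sums of 4.05 to 5.12 and 7.22 to 8.55 CPM, and Ptprc, Adgre1 and Tyrobp had no read. In Hepa1 the sums in control and ferroptotic medium were 83.1 to 85.3 and 84.2 to 86.3 CPM for endothelial markers, of which Esam was most, and 16.3 to 18.3 and 14.0 to 15.2 CPM for lymphatic markers. They were 152 to 165 and 179.8 to 188 CPM for pericyte and smooth muscle markers, and 26.9 to 32.9 and 10.5 to 12.9 CPM for macrophage markers. Among the last, Cd68 went from 24.8 ± 3.32 to 3.60 ± 0.317 CPM and Adgre1 from 0.0336 ± 0.0291 to 2.02 ± 0.327 CPM. The part of any such cells in the member values was not tested.

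Other genes of the pathway were tested from 7 lists with 122 genes. The lists were chosen with earlier results of these data known. Their shares of called genes, and their leans to one direction, are therefore a description when set beside those of all genes. In MEFs 72 of the 96 tested genes (75%) were called, 25 higher and 47 lower, against 55.0% of all genes. In Hepa1 54 of 74 (73.0%) were called, 22 higher and 32 lower, against 58.1%, and without Hepa1 ferroptotic replicate 3 the count was 50, 20 higher and 30 lower. The median log2 change was -0.12 in MEFs and -0.08 in Hepa1, and that of all genes tested 0.00 in both. Without scaling beyond library totals the MEF split over all genes moved from 4009 higher and 3934 lower to 5204 and 2963, and that of the listed genes to 29 and 40. In Hepa1 the split over all genes moved from 3865 higher and 3791 lower to 4514 and 3170, and that of the listed genes to 27 and 28, so their lean towards lower calls there was not seen on that scale.

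**Figure D3:**
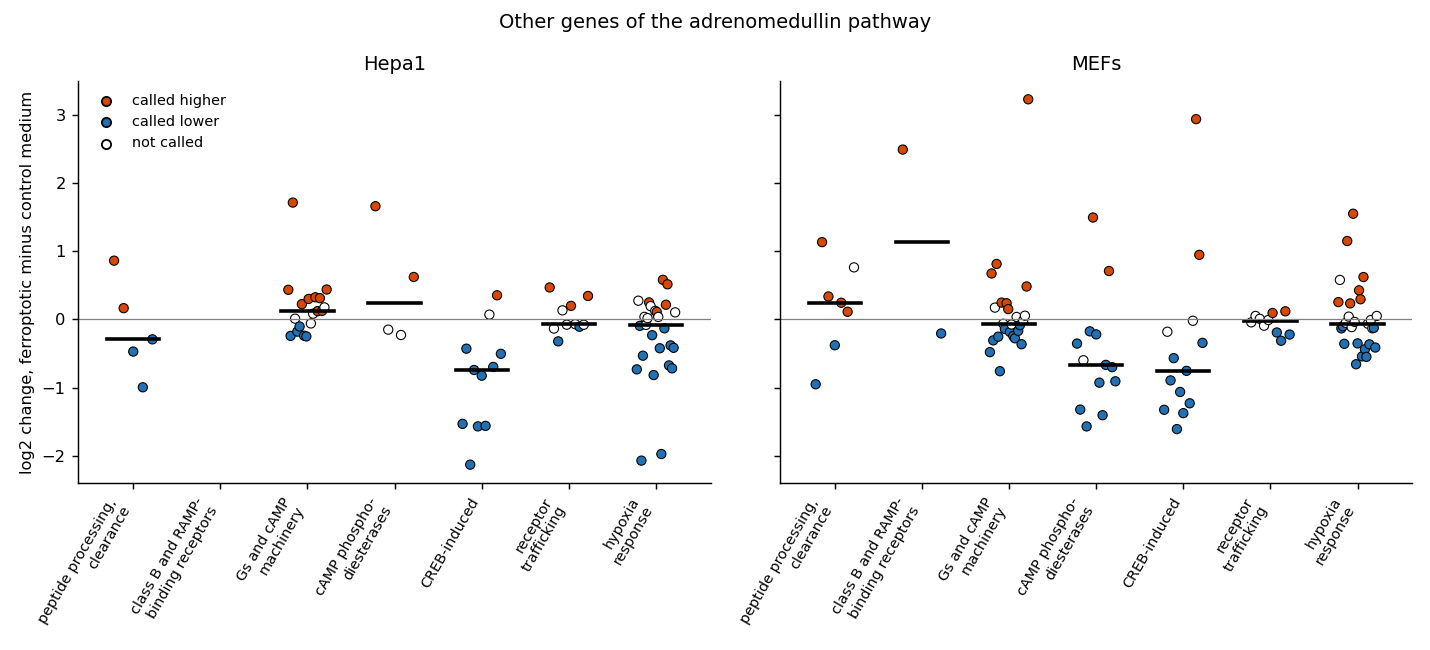
Log2 change, ferroptotic minus control medium, of each tested pathway gene in Hepa1 (left) and MEFs (right) by list, with filled points for genes called by edgeR and black lines for list medians. The CREB-induced genes have a median of -0.74 in Hepa1 and -0.75 in MEFs, and the phosphodiesterase genes a median of -0.67 in MEFs.

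Genes that make, bind or clear the peptide changed in both cell types, not all one way. In MEFs 4 of 7 tested genes of this list of 12 rose and 2 fell (median 0.25). Ackr3, the gene of a decoy receptor that takes up adrenomedullin, had a log2 change of -0.95 and fell from 51.9 ± 0.533 to 28.1 ± 1.49 CPM (adjusted p = 8.995e-24). Furin, the gene of a protease that cleaves propeptides, fell by 0.38 (adjusted p = 2.53e-16). Chosen after their values were seen, Mme and Crcp rose by 0.25 and 0.34 (adjusted p = 3.58e-09 and 2.09e-05). Pam, the gene of the enzyme that amidates the peptide, chosen likewise, rose by 0.11 (adjusted p = 0.000565). In Hepa1, 2 of 5 rose and 3 fell (median -0.29). Furin had a log2 change of -0.47 and fell from 211 ± 0.793 to 157 ± 2.03 CPM (adjusted p = 2.03e-12). Pam, which rose in MEFs, fell by 0.29 in Hepa1 (adjusted p = 2.07e-06). The sister ligand genes Calca, Calcb and Iapp were under 1 CPM in every group.

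Other class B receptors and receptors known to bind RAMPs were mostly not read. Of 15 genes 13 were under 1 CPM in every group, 2 were tested in MEFs and 0 in Hepa1. Gper1, an estrogen-binding receptor gene, rose in MEFs by a log2 of 2.49, from 0.216 ± 0.0229 to 1.30 ± 0.213 CPM (SE 0.354, adjusted p = 2.20e-08). Pth1r, the parathyroid hormone receptor gene, fell by 0.21 from 47.8 ± 1.41 to 43.4 ± 1.38 CPM (adjusted p = 9.25e-05).

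Genes of Gs and cAMP production and sensing were split. In MEFs 7 of 24 tested rose and 11 fell (median -0.07). With library totals only, 8 rose and 9 fell. The adenylyl cyclase gene Adcy2 rose by a log2 of 0.67 from 19.9 ± 0.665 to 33.3 ± 1.56 CPM (adjusted p = 5.28e-15), and Adcy1 fell by 0.48 (adjusted p = 3.99e-13). Prkar1b, a regulatory subunit gene of protein kinase A, fell by 0.36 (adjusted p = 5.56e-11). In Hepa1 9 of 18 rose and 5 fell (median 0.12), among them Prkar1a (0.31, adjusted p = 7.44e-10), Rapgef3, the gene of the cAMP sensor EPAC1 (0.44, adjusted p = 1.35e-09) and Adcy1 (0.44, adjusted p = 3.80e-08), which all rose.

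Phosphodiesterase genes, whose products break down cAMP, fell in MEFs for the most part. Of 13 tested from a list of 16, 10 fell and 2 rose, with a median log2 change of -0.67, where 27.2% of all genes tested were called lower and 27.8% higher. Pde1a had a log2 change of -1.32 and fell from 22.4 ± 1.51 to 9.39 ± 0.424 CPM (SE 0.0735, adjusted p = 6.25e-22). Pde7a fell by 0.67, from 66.2 ± 3.38 to 43.7 ± 1.52 CPM (adjusted p = 1.92e-19). Pde3b was one of the 2 that rose, by a log2 of 1.50 from 5.51 ± 0.483 to 16.3 ± 0.0375 CPM (adjusted p = 7.21e-21). Chosen after its values were seen, Pde7b was the other (0.71, adjusted p = 1.73e-08). In Hepa1 only 4 were tested, of which 2 rose, Pde7a by a log2 of 0.62 (adjusted p = 4.55e-12).

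Genes known to be induced by CREB, the transcription factor that cAMP activates, fell for the most part in both cell types. In MEFs 9 of 13 tested fell, 2 rose and 2 were not called (median -0.75), where 27.2% of all genes were called lower. In Hepa1 9 of 11 fell, 1 rose and 1 was not called (median -0.74), where 28.8% were called lower. Growth factors and stress also induce most of these genes. Nr4a1, an early-response nuclear receptor gene, had a log2 change of -1.37 in MEFs and fell from 21.2 ± 2.79 to 8.56 ± 0.373 CPM (adjusted p = 1.98e-20). It fell by 1.56 in Hepa1, from 35.8 ± 1.41 to 12.5 ± 1.37 CPM (adjusted p = 1.10e-16). Bdnf, a neurotrophin gene, fell in MEFs by 1.32, from 84.3 ± 2.08 to 35.3 ± 0.923 CPM (adjusted p = 6.51e-33). In Hepa1 Dusp1, a MAP kinase phosphatase gene, fell by 2.13 from 140 ± 11.7 to 33.0 ± 1.58 CPM (adjusted p = 3.73e-22), Nfil3 by 0.83 (adjusted p = 3.46e-14) and the clock gene Per1 by 0.70 (adjusted p = 9.78e-13). Ppargc1a, the gene of the coactivator PGC-1α, rose in MEFs by a log2 of 2.94 from 1.09 ± 0.243 to 8.85 ± 0.509 CPM (SE 0.152, adjusted p = 3.13e-23). Rgs2, which encodes a brake on G protein signals, rose by 0.95 from 22.4 ± 1.34 to 45.3 ± 1.58 CPM (adjusted p = 6.15e-22).

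Of the genes of receptor desensitisation and trafficking, 5 of 10 tested were called in each cell type (50%), against 55.0% of all genes in MEFs and 58.1% in Hepa1. In MEFs 2 rose and 3 fell, and the named ones, the endosome genes Rab5a (-0.31, adjusted p = 1.15e-10), Rab11a (-0.19, adjusted p = 3.89e-06) and Rab7 (0.12, adjusted p = 0.00046), changed by a log2 of at most 0.31. In Hepa1 3 rose and 2 fell, and with library totals only 4 rose and 1 fell, among them the arrestin gene Arrb1 (0.47, adjusted p = 3.89e-09), the receptor kinase gene Grk2 (-0.32, adjusted p = 9.82e-09) and Slc9a3r1, the gene of the RAMP3-binding scaffold NHERF1 (0.34, adjusted p = 1.33e-08).

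Hypoxia genes, among which Adm is usually counted, did not move as one. In MEFs 11 of 27 tested fell and 7 rose (median -0.06), and with library totals only 8 fell and 9 rose. Hif1a had a log2 change of -0.66 and fell from 373 ± 8.56 to 248 ± 4.37 CPM (adjusted p = 4.84e-26), while Epas1, the gene of HIF-2α, rose by a log2 of 1.55 from 34.6 ± 2.34 to 107 ± 2.15 CPM (adjusted p = 1.38e-35). Ddit4, a stress-induced mTOR inhibitor gene, rose by 1.15 (adjusted p = 3.89e-27), and P4ha2, a collagen prolyl hydroxylase gene, fell by 0.55 (adjusted p = 1.13e-20). In Hepa1, where Adm had no read, 13 of 26 fell and 5 rose (median -0.09), and with library totals only 11 fell and 9 rose. The largest of the named falls were those of Bhlhe40 (-2.07, adjusted p = 1.62e-24) and Ndrg1 (-1.97, adjusted p = 8.16e-21). Hif1a fell there by 0.82 (adjusted p = 2.82e-17) and the glucose transporter gene Slc2a1 by 0.72 (adjusted p = 3.76e-15).

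**Figure D4:**
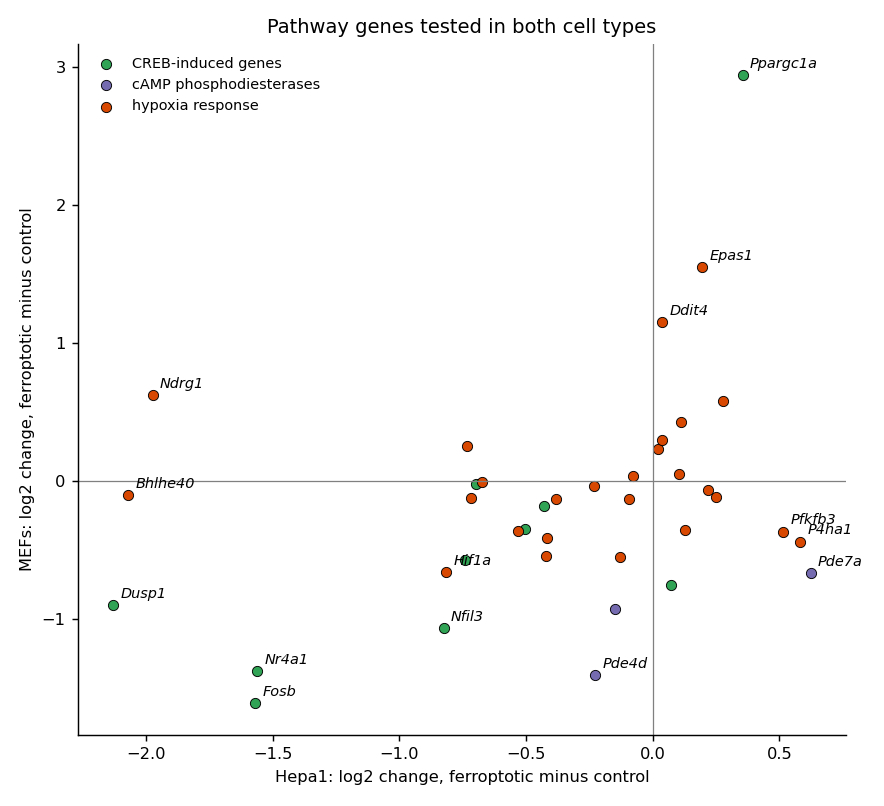
Log2 change, ferroptotic minus control medium, in Hepa1 (horizontal) and MEFs (vertical) for CREB-induced, phosphodiesterase and hypoxia genes tested in both. Dusp1, Nr4a1, Fosb and Nfil3 lie at the lower left, below 0 in both cell types, and Ndrg1 lies at the upper left, with -1.97 in Hepa1 and 0.62 in MEFs.

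Whether the medium response differed between cell types was tested with an interaction term in 1 fit of the 12 libraries. Cell type and Bach1 genotype go together here, so a difference cannot be assigned to either of them. Of 99 pathway genes tested 47 were called by edgeR, 21 with the MEF response above that of Hepa1 and 26 below it. Of all 15627 genes tested 44.2% were called, 20.9% above and 23.3% below. The calls include Mme, Ackr3, Adcy3, Prkar1b, Pde1a, Pde1c and Gper1, which were under the low-count filter of the separate Hepa1 fit. Their Hepa1 response rests on at most 33 reads per group. All of them but Gper1 were called below, so the excess of 26 over 21 depends on them. Among the called genes 12 were called in opposite directions in the 2 cell types. Ndrg1 had the smallest adjusted p of these. It rose in MEFs by a log2 of 0.62 and fell in Hepa1 by 1.97, a difference of 2.59 (SE 0.0830, adjusted p = 2.62e-28). P4ha1, a collagen prolyl hydroxylase gene, rose in Hepa1 by 0.58 and fell in MEFs by 0.44 (difference -1.02, adjusted p = 5.54e-22). Among the CREB-induced genes, the fall of Nr4a1 missed the threshold for a difference between cell types (0.18, SE 0.121, adjusted p = 0.231). That of Dusp1 was larger in Hepa1 (difference 1.23, SE 0.0866, adjusted p = 3.29e-16).

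The protein-coding genes whose pattern over the 12 libraries was most like that of a member were found among genes of at least 5 CPM in 1 group. The measure was the root mean square difference of log2(CPM + 0.5), each gene centred on its mean, so the split between cell types weighs most. Nearest to Adm were Tmem178 (0.15), Gpr176 (0.18) and Itga8 (0.21). Tmem178 was at 47.1 and 22.2 CPM in MEFs in control and ferroptotic medium, Gpr176, an orphan receptor gene, at 74.1 and 33.6, and Itga8, an integrin gene, at 79.0 and 32.4 CPM. Nearest to Ramp2 were G0s2 (0.12), which encodes an inhibitor of fat breakdown, the collagen gene Col27a1 (0.13) and Sncaip (0.14). G0s2 was at 6.65 and 23.2 CPM in MEFs. Among those near Calcrl were the p53 target Trp53inp1 (0.28) and Elovl6, a fatty acid elongase gene (0.30). Trp53inp1 was at 142 and 390 CPM in MEFs and 367 and 431 CPM in Hepa1 in control and ferroptotic medium. Elovl6 was at 16.7 and 44.7 CPM in MEFs and 32.5 and 40.9 CPM in Hepa1. In Hepa1 the means of both genes lay in the other order from those of Calcrl. Such likeness is a description of these 12 libraries.

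**Figure D5:**
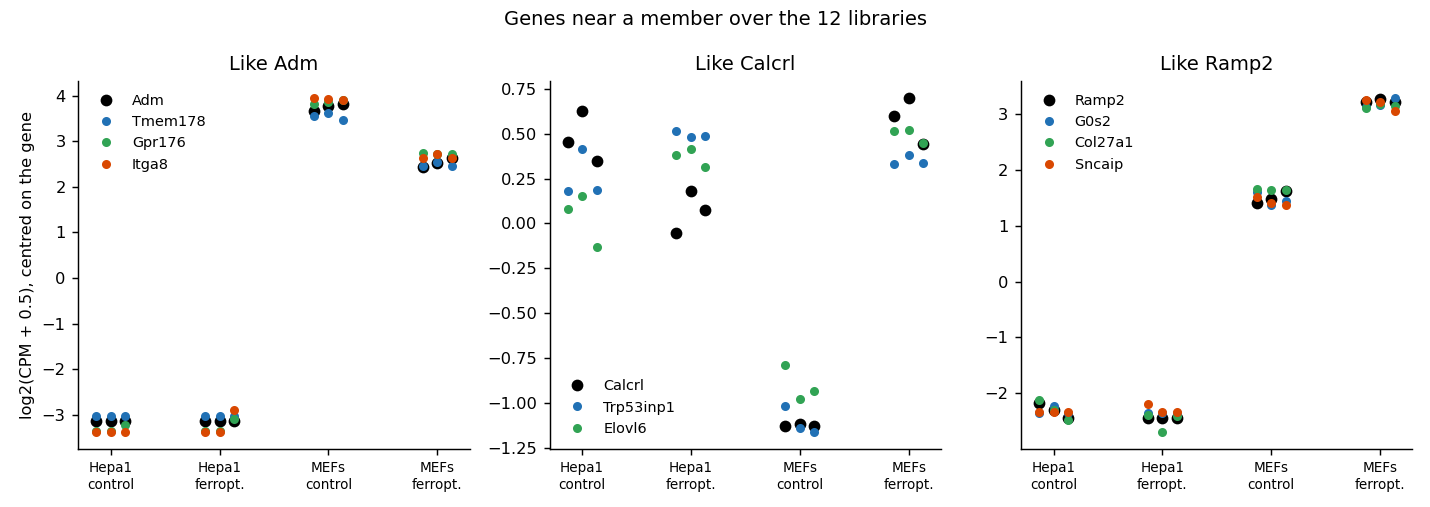
Log2(CPM + 0.5), centred on each gene's mean over the 12 libraries (vertical axis), of Adm, Calcrl and Ramp2 in black and of genes near each in colour (3 for Adm and Ramp2, 2 for Calcrl), 1 point per library in the 4 groups. The genes near Ramp2 differ from it by a root mean square of 0.12 to 0.14 and those shown near Calcrl by 0.28 and 0.30.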

How the data were processed

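The tools named in the submitters' processing notes are Trimmomatic 0.39, FastQC 0.11.9, STAR 2.7.10a and HTSeq 0.9.1, and the build is GRCm38 (mm10). For the annotation release and the strand setting, the sources used here give nothing. The authors deposited raw read counts per Ensembl gene, and 0 values differed between the series table and the sample files. The 5 HTSeq summary lines were left out: ambiguous reads were 3.66 to 4.03% and reads outside genes 2.00 to 2.58%. Groups came from sample titles. Replicates differed by 1.35 to 4.13 times the counting variance.

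GENCODE M21 named 55227 genes and left 260 unnamed. Hepa1 and MEFs were fitted separately, 6 libraries each, with edgeR 4.0.16 in R 4.3.3 (quasi-likelihood test, filterByExpr, TMM, Benjamini-Hochberg adjustment over all genes, call under 0.05); adjusted p-values are from it unless another tool is named. SE is the log2 change divided by the square root of the F statistic. Members and lists were chosen with earlier results of these data known. Named pathway genes were up to 3 per list and cell type (4 for CREB-induced and hypoxia genes) with the smallest adjusted p among called genes without overlap and at least 1 CPM in 1 group, and for the interaction the 5 with opposite calls; not all are given, and 2 genes under these rules are not reported here. Counting intervals are exact and, like floors, cover counting error only. Same-numbered control and ferroptotic libraries deviated with correlations of -0.0612 to 0.108, so numbers were not treated as pairs. Alternatives were DESeq2 1.42.0 size factors and Wald test, library totals, limma-voom (limma 3.58.1), other count filters, a replicate block and leaving out each library. The principal transcript length was a further alternative for levels per length.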

Additional observations from a re-analysis of the deposited data

Results flagged for a closer look

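These results were picked because the response to the medium differed between Hepa1 and MEFs, which differ in cell type and in Bach1 genotype. By the interaction test of edgeR, the response in MEFs minus that in Hepa1 (log2) was 2.59 for Ndrg1, -1.02 for P4ha1, -1.29 for Pde7a, -0.92 for Adcy1 and -0.88 for Pfkfb3 (adjusted p = 2.62e-28, 5.54e-22, 1.31e-20, 9.86e-15 and 1.20e-11), each with opposite calls in the 2 cell types and no overlap between the groups of libraries in either.

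Among the members, Calcrl and Ramp3 lay on opposite sides in the 2 cell types in every library, and this difference was not tested. The ferroptotic to control CPM ratio was 3.50 in MEFs and 0.746 in Hepa1 for Calcrl, and 0.0745 in MEFs and 2.63 in Hepa1 for Ramp3, which had 31 reads at most in a Hepa1 group.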

How the results depend on the processing

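The 45 recomputed counts of called pathway genes stayed within 1.5 times the reported ones. Against 54 in Hepa1, 72 in MEFs and 47 for the interaction, the alternatives that keep all libraries gave 47 to 56, 68 to 73 and 43 to 52, and leaving out 1 library 50 to 57, 68 to 72 and 43 to 48. With the replicate block the counts were 53, 73 and 47, and it ended no call of a named gene; the labels do not say that numbers pair the libraries. All 615 recomputed values of the named pathway genes kept direction and call. These genes were chosen for small adjusted p in the same libraries, so this was likely beforehand. Of 70 recomputed log2 changes of members, 65 moved by less than 1 SD between replicates and none changed sign. The exceptions were Adm with log2(mean CPM + 0.5) (-1.22) and Ramp3 in MEFs, at -2.29 on that scale and at -3.50 to -3.97 without 1 of the ferroptotic libraries, where it had 15 reads in all. With a pseudocount of 1 the genes nearest to each member were shared in at least 2 of 3 cases. Depth limits Adm2, Ramp1 and, in Hepa1, Ramp3, where 7 to 32 reads per group stood behind a value. The alternative with the length of the principal transcript was chosen after seeing the data.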
